A study of Mus musculus with 121 samples.

Results

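HH and HL fibroblasts were compared at the first of the 6 collections of RNA. The comparison holds 7 of the 62 libraries of the series, 4 of HH (replicates 1 to 4) and 3 of HL (replicates 2 to 4), chosen by the names in the sample titles, with the counts of both sequencing runs of a library summed. It is the contrast of these media in which the sample titles and the read summary of the study give every library the same name. All cells were Per2::Luc fibroblasts at passage P25, an immortalized mouse ear line with the genotype PER2::LUC sv, in which the period gene Per2 carries a luciferase reporter. Both groups therefore carry the reporter allele, and they come from 1 line. In HL, cells had 3 cycles of 12 h in medium with high glucose and insulin (H) followed by 12 h in medium low in both (L). In HH the rich medium was renewed every 12 h for the same 3 cycles, so those cells never had the poor medium during the cycles. By the study's scheme a free-running stage of 12 h followed in all groups, and the first collection carries the time label 20. The question was whether the history of alternating medium left a difference in RNA levels at that time.

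The mammalian clock is a feedback loop in which the activators CLOCK and BMAL1 (gene Arntl) turn on the period and cryptochrome genes, whose proteins then restrain them. The nuclear receptors REV-ERBα and REV-ERBβ (Nr1d1 and Nr1d2) repress Arntl, and the transcription factors DBP, TEF and HLF carry the rhythm to output genes. Fibroblasts keep such a clock in culture, and glucose, insulin and serum can shift it.

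The libraries had 4656608 to 6155532 counts in HH and 5548099 to 9785826 in HL. Values are CPM, counts scaled to a common total over the genes of a library. In bulk RNA, fewer cells with a transcript and less of it per cell cannot be told apart. The study's methods call its N values biological replicates, while the labels do not say which libraries came from separate cultures, so p-values measure the spread between these libraries. Between libraries of a group the chi-square of the counts per degree of freedom was 5.08 to 27.5, and between the runs of 1 library it was at most 1.55. Spearman correlations across genes were 0.965 to 0.980 between HH and HL libraries, 0.977 to 0.983 among HH libraries and 0.968 to 0.976 among HL libraries, so a library of HL resembled those of HH about as closely as those of its own group. The biological coefficient of variation was 14.5% in HH and 22.5% in HL. HL replicate 2 stood farthest from the rest on the first principal component, which held 22.4% of the variance, and many of the differences are also given without it. Fibroblast markers were high, with 15 of 16 at 1 CPM or more and a summed level of 50110 to 59140 CPM in HH and 55090 to 63020 CPM in HL. Fap was the marker under 1 CPM. At 1 CPM or more were 3 of 10 keratinocyte markers, led by Perp at 44.5 CPM with Krt5 and Krt14 under 1 CPM, and 1 of 8 endothelial markers, Kdr at 168 CPM with Pecam1 and Cdh5 under 1 CPM. The immune list had 4 of 10, led by Lyz2 at 6.93 CPM, with a sum of 16.8 to 26.6 CPM in HH and 15.8 to 26.2 CPM in HL. The chondrocyte list had 2 of 6, led by Sox9 at 461 CPM, the Schwann cell list 2 of 6, the adipocyte list 1 of 7, and the melanocyte and muscle lists 0 of 6 and 0 of 7.

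No gene differed between HH and HL past the threshold. Of 11544 genes tested with edgeR's quasi-likelihood test, 0 (0%) had a Benjamini-Hochberg adjusted p under 0.05, and the smallest adjusted p was 0.727. Leaving out 1 library also gave 0 genes, with the smallest adjusted p between 0.0759 (without HL replicate 4) and 0.992 (without HH replicate 3). At an unadjusted p under 0.05 there were 737 genes (6.38%), 303 higher in HH (2.62%) and 434 lower (3.76%), and at an unadjusted p under 0.01 there were 152 (1.32%). DESeq2 also gave 0 genes after adjustment, with a smallest adjusted p of 0.116, and 701 (6.07%) at an unadjusted p under 0.05. With library totals in place of TMM scaling 437 of 715 such genes were higher, and with upper quartile scaling 375 of 720. With TMM scaling but without HL replicate 2, 317 were higher and 311 lower. The excess of lower genes thus depends on the scaling and on that library. The levels of the 4 HH libraries were all above those of the 3 HL libraries for 505 genes (4.37%) and all below for 242 (2.10%). These percentages are the background for the counts of named groups given here.

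The intervals show how large a difference these libraries leave room for. Among the 8020 genes with a mean of 10 CPM or more in either group, the 95% interval of the fold change lay inside 2-fold in both directions for 7764 (96.8%), and inside 1.5-fold for 5142 (64.1%). Over the 3415 genes at 50 CPM or more the shares were 99.9% and 89.0%. An estimate past 1.5-fold was seen for 125 of the 8020 genes (1.56%), and past 2-fold for 5. These 5, named after their values were seen, were 1600002K03Rik, lower in HH, and Oasl2, Nsun5, Slc25a10 and Gpr146, higher in HH. With 1 library left out, each of the 5 came under 2-fold in some fit. The smallest log2 differences were -0.86, 0.67, 0.90, 0.83 and 0.84, in the same order. Slc25a10 encodes the mitochondrial dicarboxylate carrier, and its levels were 16.2, 8.19, 7.09 and 13.3 CPM in HH and 7.46, 2.88 and 4.49 CPM in HL. The groups overlapped, since HH replicate 3 lay under HL replicate 2. Gpr146 had 9.83, 7.98, 17.0 and 10.6 CPM in HH and 3.47, 9.19 and 3.21 CPM in HL. Here HL replicate 3 reached the range of HH. Low genes are less well bounded, and of all 11544 genes 74.5% had an interval inside 2-fold.

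No clock gene passed the threshold, and the groups overlapped for those described here except Btrc. Of 27 genes of the clock list 24 were tested, 14 higher and 10 lower in HH, with a median log2 difference (HH minus HL) of 0.075 beside 0.003 over all genes. Leaving out 1 library gave medians of -0.010 (without HL replicate 4) to 0.145 (without HH replicate 3), on both sides of 0. At an unadjusted p under 0.05 there were 1 higher and 1 lower member, 8.33% of those tested beside 6.38% of all genes. Among the activators, Clock had 79.8, 91.7, 73.4 and 88.9 CPM in HH and 89.8, 69.0 and 66.3 CPM in HL. The highest HL library lay within the HH range, and the log2 difference was 0.11 (95% interval -0.19 to 0.41), and 0.27 without HL replicate 2. Arntl had 6.33, 6.75, 7.09 and 7.80 CPM in HH and 5.72, 6.13 and 8.83 CPM in HL, and the groups overlapped with a difference of -0.01 (95% interval -0.67 to 0.65).

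The period genes are repressors of the loop, and the luciferase reporter sits in Per2. Per1 had 5.00, 9.01, 7.30 and 7.96 CPM in HH and 5.62, 3.96 and 4.65 CPM in HL. Of the HH libraries 3 lay above all HL libraries and replicate 1 lay within them, and the log2 difference was 0.57 (95% interval -0.16 to 1.29) with an unadjusted p of 0.119 (edgeR's quasi-likelihood test). Per2 was low, with 0.666, 2.46, 1.07 and 2.76 CPM in HH and 1.94, 0.901 and 1.60 CPM in HL, and its interval of -1.26 to 1.60 leaves room for more than 2-fold either way. Per3 had 4.83, 3.89, 4.29 and 4.06 CPM in HH and 4.80, 3.60 and 1.76 CPM in HL, with a difference of 0.27 (95% interval -0.65 to 1.20), and 0.65 without HL replicate 2. The cryptochromes complete the repressor complex. Cry1 ranged from 16.5 to 26.3 CPM in HH and from 13.5 to 27.2 CPM in HL, and its log2 difference was 0.04 (95% interval -0.44 to 0.52). Cry2 had 8.83, 6.75, 6.01 and 6.01 CPM in HH and 6.85, 3.24 and 6.58 CPM in HL, again with overlap, and a difference of 0.25 (95% interval -0.48 to 0.98), and 0.44 without HL replicate 2.

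Nr1d1, which encodes the repressor REV-ERBα, had 14.3, 10.4, 13.3 and 13.7 CPM in HH and 11.1, 15.5 and 7.38 CPM in HL. The lowest and the highest of these 7 values were both HL libraries, and the log2 difference was 0.16 (95% interval -0.38 to 0.71). Nr1d2 had 17.99, 14.3, 17.2 and 21.3 CPM in HH and 15.1, 19.6 and 11.4 CPM in HL, with overlap. The difference was 0.17 (95% interval -0.30 to 0.65), and 0.01 to 0.35 with 1 library left out. Tef had the narrowest interval of the clock genes described here, with 60.6, 69.4, 57.1 and 56.9 CPM in HH and 59.98, 60.9 and 58.6 CPM in HL and a difference of -0.01 (95% interval -0.29 to 0.27). For Dbp the values were 6.83, 6.55, 4.94 and 2.44 CPM in HH and 3.88, 3.96 and 2.73 CPM in HL. HH replicate 4 was the lowest of all, the other HH libraries lay above HL, and the log2 difference was 0.50 (95% interval -0.39 to 1.40). It was 1.18 in the first sequencing run and 0.02 in the second. The list members with the smallest p were Btrc, an F-box protein that marks period proteins for degradation, and Hlf. Btrc had 9.16, 3.68, 6.01 and 8.61 CPM in HH and 2.86, 1.98 and 3.37 CPM in HL, HH above HL in every library, with a log2 difference of 1.28 (95% interval 0.41 to 2.15) and an adjusted p of 0.727. Hlf had 20.0, 36.8, 28.4 and 33.8 CPM in HH and 22.1, 43.1 and 60.8 CPM in HL. HL replicate 2 lay within HH and HL replicates 3 and 4 above all HH libraries, and the difference was -0.52 (95% interval -1.04 to -0.00). Leaving out 1 library gave -0.84 (without HL replicate 2) to -0.14 (without HL replicate 4).

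**Figure D1:**
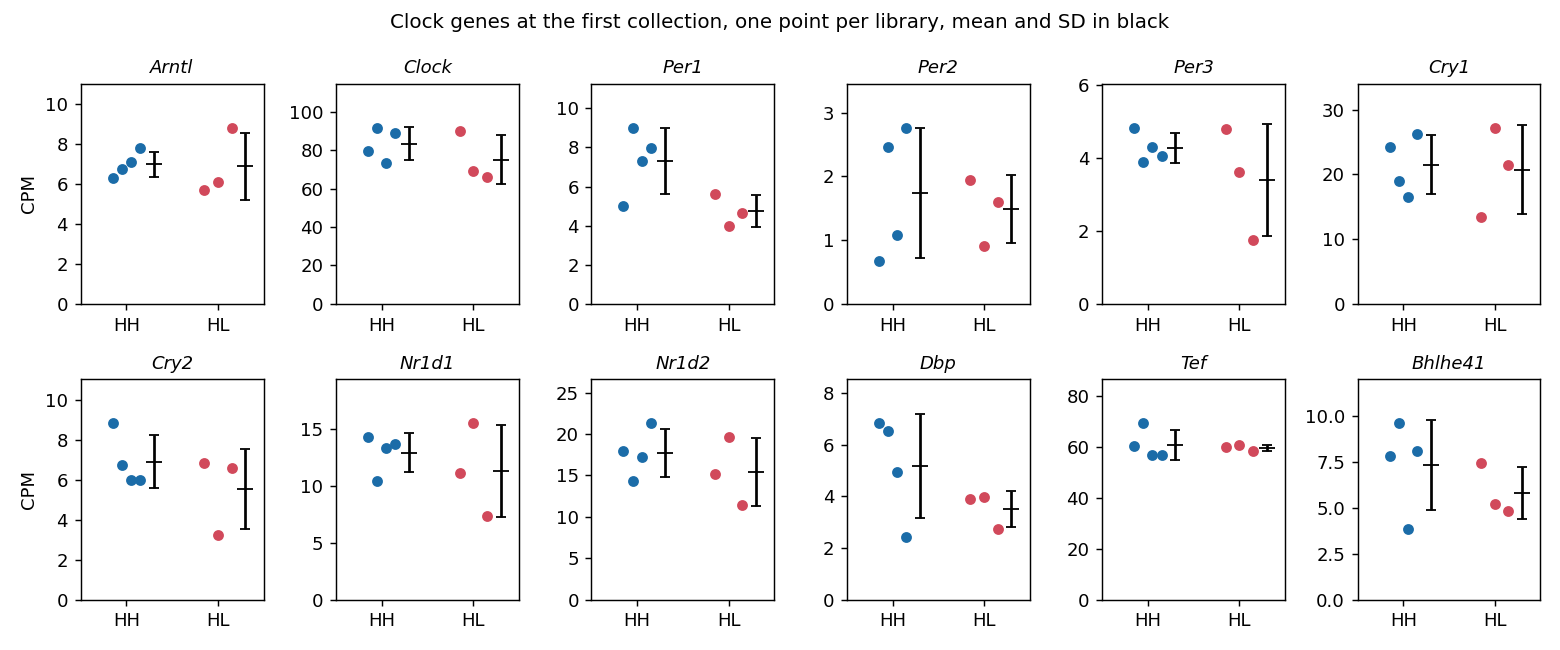
Levels of 12 clock genes at the first collection, in CPM on a linear axis from 0, with 1 point for each of the 4 HH and 3 HL libraries and the mean and SD in black. The points of HH and HL overlap in each panel, as for Tef, with 56.9 to 69.4 CPM in HH and 58.6 to 60.9 CPM in HL.

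CLOCK and BMAL1 bind the E-box CACGTG. The letters CACGTG, which read the same on both strands, occurred in 7.15% of the 32851 RefSeq promoter windows of 300 bases (250 before and 50 after a start, GRCm38.p6) and in a window of 12.0% of the 9056 tested genes that have one. Of the 24 clock genes tested 19 had a window and 4 held the letters, those of Per1, Cry1, Tef and Bhlhe41. The Per1 window is shown, at chr11:69098699-69098998 (plus strand), because Per1 is the period gene whose values stood most apart, with the match in capitals. A match is a description of the letters, not of binding.
Per1: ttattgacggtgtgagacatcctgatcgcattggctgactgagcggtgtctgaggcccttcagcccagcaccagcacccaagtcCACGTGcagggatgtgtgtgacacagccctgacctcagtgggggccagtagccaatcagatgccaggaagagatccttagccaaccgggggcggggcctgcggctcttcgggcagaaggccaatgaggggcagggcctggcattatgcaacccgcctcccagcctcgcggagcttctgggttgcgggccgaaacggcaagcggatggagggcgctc

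Several of the same genes varied over time in HH. By the study's scheme the collections were 4 h apart, but the titles of HH collections 2 and 5 carry the same time label, 12. Among the 15 HH libraries of collections 2 to 6, none of which is in the comparison of HH and HL, 7 of 12094 genes (0.0579%) varied with an adjusted p under 0.05 by edgeR's quasi-likelihood F-test, and 674 (5.57%) had an unadjusted p under 0.05. The 7 were Nr1d1, Dbp, Tef, Bhlhe41, Cry1, Nr1d2 and Spon2, of which 6 are clock genes and Spon2 encodes a secreted matrix protein. Mean levels of Nr1d1 in HH went from 43.1 CPM at collection 2 to 157 at collection 3 and 10.9 at collection 6, a range of 14.4-fold (adjusted p = 5.27e-05). At the first collection the HH mean was 12.9 CPM, near that low end, and the interval for HH over HL ran from 1.31-fold lower to 1.63-fold higher. Dbp ranged 12.5-fold over collections 2 to 6, and its interval between the groups reached 2.64-fold higher in HH. For Tef the range over time was 3.46-fold and the interval between the groups reached 1.23-fold lower and 1.21-fold higher. Nr1d2 ranged 3.85-fold and Cry1 3.66-fold over time. Bhlhe41, a repressor of the clock activators, ranged 4.29-fold, and at the first collection it had 7.83, 9.62, 3.87 and 8.12 CPM in HH and 7.46, 5.23 and 4.82 CPM in HL. These overlapped, with a log2 difference of 0.28 (95% interval -0.44 to 1.01), and 0.52 without HL replicate 2. Spon2 had 42.8, 54.9, 48.8 and 40.5 CPM in HH and 61.8, 56.2 and 46.4 CPM in HL and a log2 difference of -0.27 (95% interval -0.60 to 0.05), and -0.17 without HL replicate 2. These 7 were picked for their variation over time, so the ranges are a description beside the intervals.

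**Figure D2:**
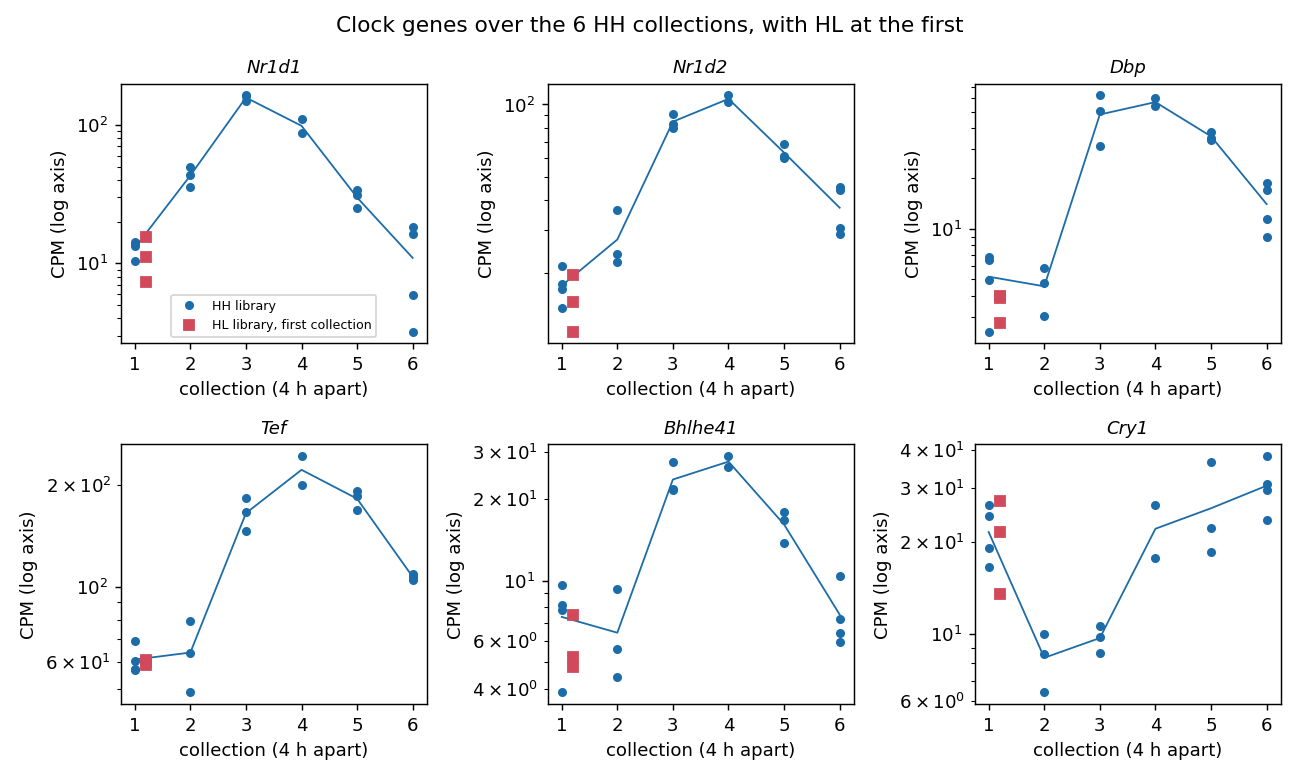
Levels of 6 clock genes in the HH libraries of collections 1 to 6, 4 h apart by the study's scheme, on a log axis in CPM. Blue points are HH libraries, with a line through the HH means, and red squares are the 3 HL libraries of the first collection. The HL squares overlap the HH points of the first collection in each panel, while HH means of Nr1d1 go up to 157 CPM at collection 3.

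Genes that respond to glucose and insulin were next in question, since the media differ in both. Txnip, which encodes a protein that limits glucose uptake and is turned on by glucose through MondoA and ChREBP, had 60.3, 47.5, 63.6 and 37.9 CPM in HH and 27.5, 50.5 and 38.2 CPM in HL. HL replicate 2 was the lowest library and HL replicates 3 and 4 lay within HH, and the log2 difference was 0.41 (95% interval 0.01 to 0.81) with an unadjusted p of 0.0473 and an adjusted p of 0.773 by edgeR's quasi-likelihood test. Without HL replicate 2 it was 0.21. Arrdc4, its relative and a target of the same factors, was near the limit of detection with 2.33, 1.43, 2.58 and 0.975 CPM in HH and 2.25, 3.96 and 0.802 CPM in HL, and its interval of -1.70 to 0.93 includes both directions. Hk2, hexokinase 2, which traps glucose in the cell, had 10.8, 12.1, 11.2 and 12.2 CPM in HH and 6.85, 7.57 and 8.02 CPM in HL. Every HH library lay above every HL library, and the log2 difference was 0.59 (95% interval 0.05 to 1.14) with an adjusted p of 0.773. The glucose-sensing list had 10 of 13 genes tested, 5 higher and 5 lower, and these 2 at an unadjusted p under 0.05. Leaving out HL replicate 2 gave 0, with 3 higher, and the median with 1 library left out ran from -0.150 (without HL replicate 2) to 0.137 (without HL replicate 3).

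Insulin acts through its receptor and the IRS proteins, and it keeps FOXO factors out of the nucleus. Irs1, an adaptor of the receptor, had 27.6, 20.1, 25.6 and 19.5 CPM in HH and 14.5, 17.7 and 16.1 CPM in HL. The groups did not overlap, and the log2 difference was 0.49 (95% interval 0.07 to 0.91). Igfbp6, which binds IGF2, had 42.1, 43.4, 49.6 and 35.9 CPM in HH and 63.8, 43.3 and 52.3 CPM in HL and a difference of -0.36 (95% interval -0.71 to -0.02), and -0.20 without HL replicate 2. The insulin and IGF list had 38 of 40 genes tested, 20 higher and 18 lower, 2 higher and 1 lower at an unadjusted p under 0.05, and a median of 0.00784 on the log2 scale. The counts were 0 higher and 2 lower without HL replicate 2, and the median with 1 library left out ran from -0.087 (without HH replicate 2) to 0.068 (without HL replicate 3). Of the FOXO targets that insulin lowers 18 of 20 were tested, 12 higher and 6 lower, with a median log2 difference of 0.0244, and of 0.004 (without HH replicate 1) to 0.107 (without HL replicate 3) with 1 library left out. The list had 1 member at an unadjusted p under 0.05, Cdkn1b, an inhibitor of the G1 to S step, with 145, 109, 152 and 113 CPM in HH and 95.1, 106 and 109.8 CPM in HL. HL overlapped the lower HH libraries, and the log2 difference was 0.28 (95% interval 0.01 to 0.56). Ccng2, also a FOXO target, had 15.5, 14.3, 24.7 and 15.4 CPM in HH and 7.77, 14.6 and 14.0 CPM in HL and a difference of 0.51 (95% interval -0.04 to 1.05), and 0.25 without HL replicate 2.

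**Figure D3:**
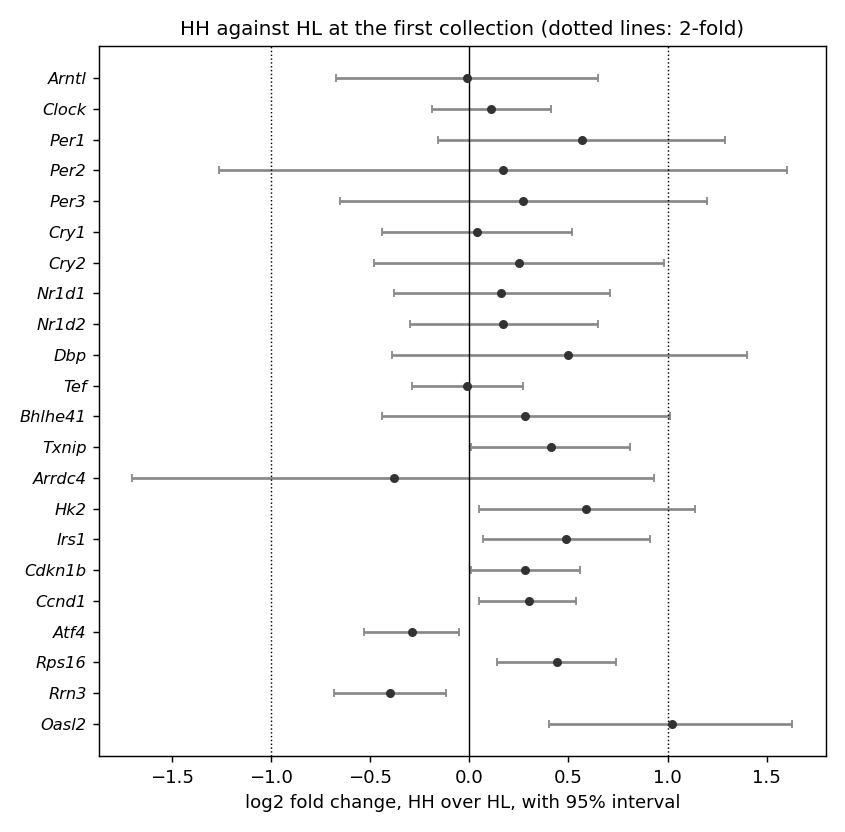
Log2 fold change of HH over HL at the first collection with its 95% interval from edgeR for 12 clock genes and 10 genes of other lists, with dotted lines at 2-fold. The intervals of Tef and Clock lie well inside 2-fold, while that of Per2 runs from -1.26 to 1.60.

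Genes of fuel pathways were split between higher and lower. Of 26 glycolysis genes 22 were tested, 10 higher and 12 lower with a median log2 difference of -0.00726 and 1 higher at an unadjusted p under 0.05, Hk2. That median ran from -0.087 (without HH replicate 4) to 0.041 (without HH replicate 3) with 1 library left out. The tricarboxylic acid cycle and pyruvate entry list had 32 genes tested, 20 higher and 12 lower, and 16 higher without HL replicate 2. Mdh1, cytosolic malate dehydrogenase, had a log2 difference of -0.35 (95% interval -0.62 to -0.09), and Suclg2, a subunit of succinyl-CoA synthetase, one of 0.77 (95% interval 0.16 to 1.39), and 0.49 without HL replicate 2. Of the sterol synthesis genes 28 were tested, 17 higher and 11 lower, 1 each at an unadjusted p under 0.05. When HL replicate 2 was left out, 9 were higher, the median went from 0.0544 to -0.031 and both counts were 0. With all 7 libraries these were Tm7sf2, a sterol reductase, with 0.63 (95% interval 0.09 to 1.17), and Fdps, farnesyl diphosphate synthase, with -0.25 (95% interval -0.51 to -0.00). Fatty acid synthesis had 17 of 19 genes tested, 9 higher and 8 lower, and 7 higher without HL replicate 2. Its regulator Srebf1 had 11.8, 6.14, 9.02 and 7.31 CPM in HH and 3.68, 5.59 and 7.06 CPM in HL, with overlap at HL replicate 4 and a difference of 0.63 (95% interval -0.07 to 1.34), and 0.40 without HL replicate 2.

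Mitochondrial transcripts of the organelle's own genome had 12 of 15 genes tested, 7 higher and 5 lower, with a median log2 difference of 0.139 and 3 higher at an unadjusted p under 0.05. Leaving out 1 library gave medians of 0.083 (without HH replicate 1) to 0.229 (without HH replicate 3), and 1 to 5 higher. Their summed level was 35000, 30477, 22138 and 33364 CPM in HH and 23087, 25962 and 25656 CPM in HL. HH replicate 3 lay under all HL libraries and the other 3 above them, so the groups overlapped. mt-Co1, a subunit of cytochrome oxidase, had 896, 775, 688 and 858 CPM in HH and 527, 677 and 667 CPM in HL. All HH libraries lay above HL, with a log2 difference of 0.33 (95% interval 0.08 to 0.58). mt-Cytb, of complex III, had a difference of 0.32 (95% interval 0.05 to 0.58), and 0.21 without HL replicate 2. The nuclear genes of the respiratory chain had 52 of 77 higher with a median of 0.0557, and 3 higher and 0 lower at an unadjusted p under 0.05 (3.9%). Without HL replicate 2, 38 were higher with counts of 0 and 1, and the median with 1 library left out ran from -0.012 (without HH replicate 4) to 0.101 (without HL replicate 4).

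Ribosomal proteins and the genes that assemble ribosomes had medians of opposite sign. Of the 79 cytosolic ribosomal protein genes 68 were higher in HH, with a median log2 difference of 0.124 beside 0.003 over all genes. At an unadjusted p under 0.05 there were 7 higher and 0 lower (8.86%, beside 6.38% of all genes), and 8 had all HH libraries above HL. Their summed level was 59563, 59214, 56987 and 65822 CPM in HH and 54596, 55932 and 58448 CPM in HL. HL replicate 2 was the lowest and HH replicate 4 the highest, and HL replicate 4 reached the range of HH. Rps16 had 116, 110.1, 116 and 114 CPM in HH and 59.8, 90.5 and 96.1 CPM in HL, with a log2 difference of 0.44 (95% interval 0.14 to 0.74), and Rps27 had 334, 319.7, 322 and 373 CPM in HH and 196, 271.4 and 295.3 CPM in HL, with 0.37 (95% interval 0.10 to 0.64). In both, HL replicate 2 was far under the other HL libraries, and without it the differences were 0.26 and 0.22. Without that library 57 of the 79 genes were higher, the median was 0.045 and 1 gene had an unadjusted p under 0.05. Without HH replicate 4 the median was 0.065, with 2 such genes. Without HL replicate 4 it was 0.215, with 27 higher and 1 lower. Many of these genes have processed copies elsewhere in the genome, so their counts are uncertain where reads could fall on a copy.

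The 40 ribosome biogenesis genes had 30 lower in HH and 10 higher, with a median log2 difference of -0.136. At an unadjusted p under 0.05 there were 7 lower (17.5%) and 0 higher, beside 3.76% of all genes lower. Rrn3, the factor that brings RNA polymerase I to the rRNA genes, had 51.3, 62.02, 63.4 and 63.5 CPM in HH and 76.0, 79.0 and 76.4 CPM in HL. All HH libraries lay below HL, and the log2 difference was -0.40 (95% interval -0.68 to -0.12). Rrp12, needed for export of ribosomal subunits, had 2.17, 1.84, 3.44 and 3.09 CPM in HH and 7.87, 7.93 and 2.57 CPM in HL. HL replicate 4 lay within HH, and the difference was -1.25 (95% interval -2.20 to -0.31). For Dkc1, the pseudouridine synthase dyskerin, the log2 difference was -0.30 (95% interval -0.58 to -0.03), and -0.12 without HL replicate 2. The summed level of the list was 3064, 2890, 2869 and 3147 CPM in HH and 3436, 3290 and 2839 CPM in HL, with overlap, since HL replicate 4 was the lowest of all. Without HL replicate 2 the median was -0.123 with 4 genes lower at an unadjusted p under 0.05, and without HL replicate 4 it was -0.245 with 10 lower and 1 higher. With library totals the medians were 0.160 for ribosomal proteins and -0.096 for biogenesis, beside 0.0421 over all genes, and the counts at an unadjusted p under 0.05 were 11 higher for ribosomal proteins and 3 lower for biogenesis.

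**Figure D4:**
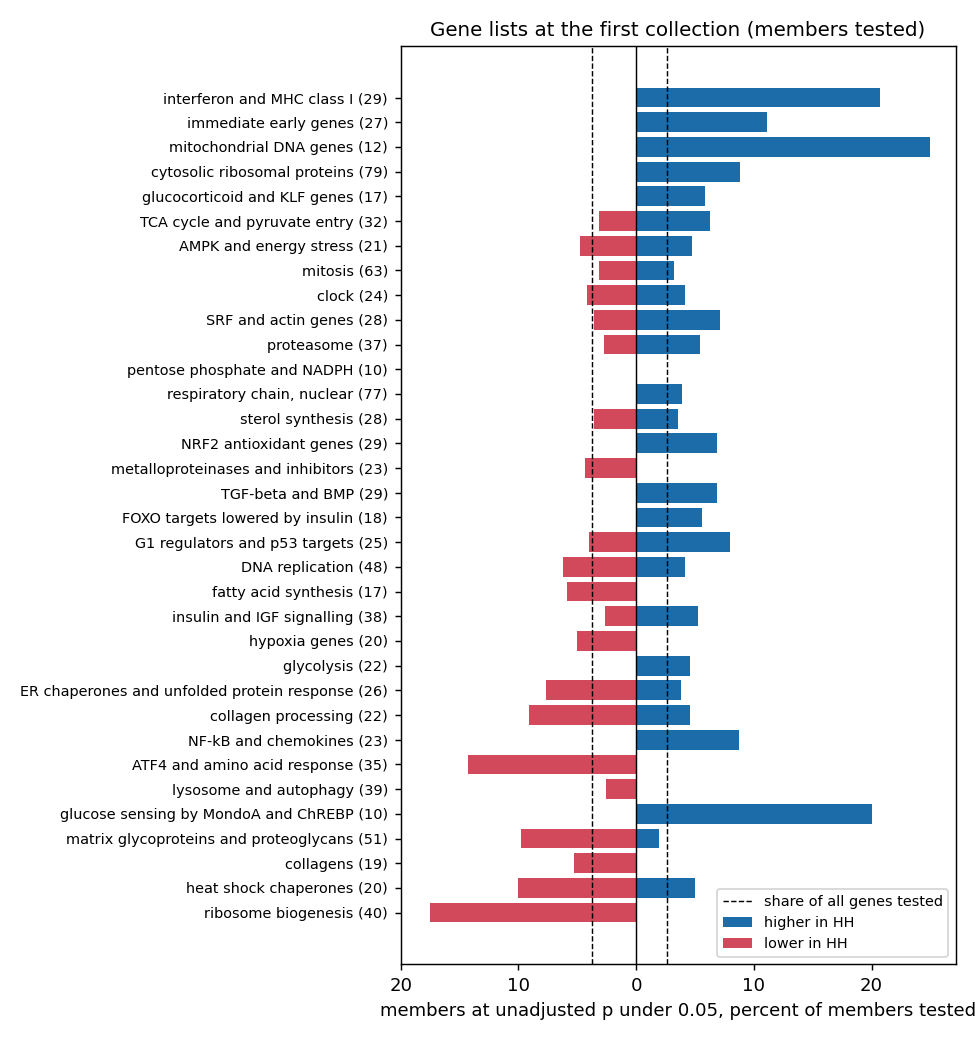
Members of each gene list with an unadjusted p under 0.05, as a percent of its members tested (number in brackets), with blue bars for higher and red bars for lower in HH and dashed lines at the 2.62% and 3.76% of all genes. No member passed the adjusted threshold. Interferon genes and ribosome biogenesis lie farthest out among the lists of more than 20 members.

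Interferon-stimulated genes had the highest share of members higher in HH at an unadjusted p under 0.05 among the lists of more than 20 members. Of 32 interferon and MHC class I genes 29 were tested, 19 higher and 10 lower with a median log2 difference of 0.140, and 6 (20.7%) were higher and 0 lower at an unadjusted p under 0.05, beside 2.62% of all genes higher. Their summed level was 4228, 4687, 5029 and 4775 CPM in HH and 4460, 4550 and 5547 CPM in HL, with the highest value in HL replicate 4 and overlap of the groups. Among them were Oasl2, Ifit3, Gbp2, Ifi44 and Isg15. Oasl2, a relative of the oligoadenylate synthases, had 10.99, 18.4, 16.5 and 30.5 CPM in HH and 7.56, 8.83 and 11.6 CPM in HL. HH replicate 4 was the highest, HH replicate 1 lay within HL, and the log2 difference was 1.02 (95% interval 0.40 to 1.63), and 0.67 without HH replicate 4, under 2-fold. Gbp2, a guanylate-binding protein that restricts microbes, had 13.8, 11.5, 13.5 and 13.3 CPM in HH and 8.58, 5.95 and 7.22 CPM in HL. All HH libraries lay above HL, with a difference of 0.79 (95% interval 0.24 to 1.34). Ifit3, which binds foreign RNA with its partners, had 17.7, 23.7, 12.9 and 31.5 CPM in HH and 10.2, 11.7 and 13.6 CPM in HL and overlapped at HH replicate 3. Its close copy Ifit3b could share reads with it, so its count is uncertain. Isg15, a ubiquitin-like protein, had 13.5, 19.6, 17.4 and 24.7 CPM in HH and 8.07, 14.1 and 12.8 CPM in HL, with HH replicate 1 under HL replicate 3. The list as a whole did not keep 1 direction without HL replicate 2, when 5 members were higher and 4 lower at an unadjusted p under 0.05 and the median was 0.054. Without HH replicate 4, 3 were higher and 1 lower, and without HL replicate 4, 9 were higher and 0 lower with a median of 0.326. Over collections 2 to 6 the HH means of Ifit3 ran from 30.8 to 102 CPM, with an adjusted p over time of 0.836 by edgeR's quasi-likelihood F-test. Gbp2 overlaps a gene model on the other strand (Mir6381), as Nr1d1 overlaps Thra, and whether strand was used in counting is not given in the sources used here.

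Promoter windows of 3 of these genes are shown because they hold the core of the interferon-stimulated response element, searched as GAAA, any 2 bases and GAAA on both strands and marked in capitals. The letters occurred in 3.44% of all 32851 windows and in a window of 3.82% of tested genes. Of the 29 interferon and MHC genes tested 26 had a window and 12 held the letters. The windows lie at chr19:34583279-34583578 (plus strand), chr4:156200769-156201068 (minus strand) and chr3:142620413-142620712 (plus strand) in GRCm38.p6, with 2, 3 and 1 matches. The matches in Ifit3 and Gbp2 are on the other strand and read TTTC, any 2 bases and TTTC, and the 3 in Isg15 overlap each other.
Ifit3: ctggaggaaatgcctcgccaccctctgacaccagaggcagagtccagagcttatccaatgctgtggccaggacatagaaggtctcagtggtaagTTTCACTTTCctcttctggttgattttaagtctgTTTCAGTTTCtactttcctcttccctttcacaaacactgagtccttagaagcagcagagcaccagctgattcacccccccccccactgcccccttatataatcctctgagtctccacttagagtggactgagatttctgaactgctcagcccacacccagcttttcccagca
Isg15: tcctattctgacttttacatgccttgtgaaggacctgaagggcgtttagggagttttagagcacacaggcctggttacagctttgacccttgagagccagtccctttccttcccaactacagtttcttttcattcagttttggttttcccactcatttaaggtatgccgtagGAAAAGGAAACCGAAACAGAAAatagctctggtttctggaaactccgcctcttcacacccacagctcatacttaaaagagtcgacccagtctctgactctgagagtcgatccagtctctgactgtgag
Gbp2: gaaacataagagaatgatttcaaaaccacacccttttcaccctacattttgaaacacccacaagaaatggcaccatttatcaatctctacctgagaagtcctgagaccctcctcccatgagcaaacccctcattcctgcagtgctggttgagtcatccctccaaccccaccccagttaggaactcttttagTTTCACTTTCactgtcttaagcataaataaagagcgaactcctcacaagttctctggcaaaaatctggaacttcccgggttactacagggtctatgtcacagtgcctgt

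Lists of stress responses did not share a direction, with 17 higher and 12 lower among NRF2 antioxidant genes, 13 and 8 among genes of AMPK and energy stress, and 10 and 10 among hypoxia genes. ATF4 drives amino acid supply when nutrients are short, and of 37 genes of its list 35 were tested, 15 higher and 20 lower, with 0 higher and 5 lower (14.3%) at an unadjusted p under 0.05. They were Nupr1, Mthfd2, Atf4, Trib3 and Sars. Atf4 had 475, 537, 495 and 589 CPM in HH and 656, 572 and 643 CPM in HL. HL replicate 3 lay under HH replicate 4, and the log2 difference was -0.29 (95% interval -0.53 to -0.05). Mthfd2, a mitochondrial folate enzyme, had 91.3, 92.1, 81.6 and 98.3 CPM in HH and 96.6, 126 and 112 CPM in HL, with -0.33 (95% interval -0.60 to -0.06). Trib3, a pseudokinase that restrains AKT, had 9.16, 6.55, 10.1 and 10.4 CPM in HH and 14.8, 16.0 and 9.95 CPM in HL, with -0.62 (95% interval -1.17 to -0.07). Sars, the seryl-tRNA synthetase, had 261.2, 290.6, 262.6 and 280.7 CPM in HH and 338, 319 and 299.3 CPM in HL, with HH below HL in every library. Nupr1, a stress-induced chromatin protein, differed by -0.46 (95% interval -0.83 to -0.10). The median of the list was -0.033, and it ranged from -0.147 without HL replicate 2, when 8 were higher, to 0.006 without HL replicate 3. Without HH replicate 1, 1 member was lower at an unadjusted p under 0.05.

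Among heat shock chaperones 20 of 21 genes were tested and 15 were lower in HH, with a median of -0.0907, 1 higher and 2 lower at an unadjusted p under 0.05. Leaving out 1 library gave medians of -0.142 (without HL replicate 2) to -0.088 (without HH replicate 2), and 1 to 4 lower; without HL replicate 2 there were 1 higher and 3 lower. The cytosolic chaperone Hsp90ab1 had 4281, 4435, 3943 and 3986 CPM in HH and 7420, 4632 and 4185 CPM in HL. HL replicate 2 stood far above the other 6 libraries, and the log2 difference of -0.42 (95% interval -0.71 to -0.13) became -0.11 without it. Hsp90aa1, its stress-induced partner, had a difference of -0.28 (95% interval -0.52 to -0.04), and -0.20 without HL replicate 2. In the endoplasmic reticulum, Calr, a calcium-binding chaperone, had 1237, 1198, 1142 and 1235 CPM in HH and 1726, 1380 and 1268 CPM in HL. All HH libraries lay below HL, with a difference of -0.32 (95% interval -0.55 to -0.08), and -0.17 without HL replicate 2.

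Of genes of growth and matrix, Ccnd1, cyclin D1, had 370.5, 350.0, 393 and 379.7 CPM in HH and 253.5, 345 and 291.8 CPM in HL. The groups did not overlap, and the log2 difference was 0.30 (95% interval 0.05 to 0.54), and 0.20 without HL replicate 2. Of 63 mitosis genes 38 were higher and 25 lower, with 2 in each direction at an unadjusted p under 0.05, and 28 to 44 were higher with 1 library left out. Of 48 DNA replication genes 25 were higher and 23 lower, with 2 higher and 3 lower at an unadjusted p under 0.05, and 20 to 30 were higher with 1 library left out. Immediate early genes had 21 of 27 higher with a median of 0.140 and 3 (11.1%) higher at an unadjusted p under 0.05. Among them Ccn1, a matrix-associated signalling protein, had 47.8, 36.0, 38.4 and 33.8 CPM in HH and 13.5, 34.4 and 29.9 CPM in HL, with HL replicate 2 far below the rest and HL replicate 3 within HH, and a difference of 0.58 (95% interval 0.10 to 1.05), and 0.25 without HL replicate 2. The median of the immediate early list ran from 0.056 (without HL replicate 2) to 0.220 (without HL replicate 3) with 1 library left out. Collagens had 12 of 19 lower, with 1 lower at an unadjusted p under 0.05, Col6a2, whose difference was -0.22 (95% interval -0.45 to -0.00), and -0.12 without HL replicate 2. Of 51 matrix glycoprotein and proteoglycan genes 30 were lower and 21 higher, 5 lower and 1 higher at an unadjusted p under 0.05 (11.8%). Sparc, a collagen-binding glycoprotein, had 14370, 15160, 12520 and 12690 CPM in HH and 20080, 15340 and 13980 CPM in HL, with HL replicate 2 the highest, and a difference of -0.31 (95% interval -0.55 to -0.07), and -0.13 without it. Fmod, fibromodulin, which shapes collagen fibrils, had 13.0, 11.9, 8.59 and 11.1 CPM in HH and 17.4, 16.2 and 15.2 CPM in HL. HH lay below HL in every library, with a difference of -0.59 (95% interval -1.07 to -0.11). The median of the matrix list was -0.075, and 0.010 without HL replicate 2, when 1 gene was lower at an unadjusted p under 0.05. Without HL replicate 4, 11 were lower and 4 higher. Bmp1, which trims procollagen, differed by -0.48 (95% interval -0.81 to -0.15), and Mmp14, a membrane-bound collagenase, by -0.37 (95% interval -0.66 to -0.07). In both the highest library was HL replicate 2, and without it the differences were -0.17 and -0.12.

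The 12 genes with the smallest p in each direction, at a mean of 5 CPM or more in either group, did not reach the threshold, each with an adjusted p of 0.727 by edgeR's quasi-likelihood test. Among those lower in HH, Map1b (chromosome 13, 99421446 to 99516540, minus strand, mm10), a microtubule-associated protein, had 95.5, 100.1, 77.7 and 88.4 CPM in HH and 176, 117 and 122 CPM in HL. HH lay below HL in every library, and HL replicate 2 was the highest. The log2 difference was -0.66 (95% interval -0.96 to -0.36), and -0.43 without HL replicate 2. A second gene model, 5330431K02Rik, overlaps it on the same strand. With no filter on low counts 5 genes passed the threshold, among them Map1b, Nemf and Sema3c. Dkk2 (chromosome 3, 132085292 to 132180304, plus strand), a secreted modulator of Wnt signalling, had 218, 228.8, 228.1 and 230.2 CPM in HH and 305, 354 and 275.6 CPM in HL, means of 226.3 ± 5.47 CPM (SD, n = 4) in HH and 312 ± 39.8 CPM (SD, n = 3) in HL. The HH libraries lay close together and below all HL libraries, with a log2 difference of -0.50 (95% interval -0.73 to -0.26). The Dkk2 level differed between runs, with HH means of 206 CPM in the first and 240 in the second. HL means were 302 and 323 CPM, and the log2 difference was -0.59 and -0.47. Rfc1, the large subunit of the clamp loader of DNA replication, had 95.8, 91.3, 80.3 and 83.8 CPM in HH and 149, 114 and 108 CPM in HL. Its difference was -0.54 (95% interval -0.82 to -0.26), and -0.37 without HL replicate 2.

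Aldh1l2, a mitochondrial enzyme of folate metabolism, had 19.7, 23.5, 26.6 and 33.0 CPM in HH and 36.2, 50.1 and 39.8 CPM in HL. The groups did not overlap, and the log2 difference was -0.74 (95% interval -1.12 to -0.35). Gstt1, a glutathione transferase, had 36.0, 33.0, 41.0 and 35.4 CPM in HH and 50.7, 57.1 and 49.8 CPM in HL, with -0.57 (95% interval -0.88 to -0.26), also without overlap. Rsf1, a chromatin remodelling factor, differed by -0.53 (95% interval -0.82 to -0.25), and -0.34 without HL replicate 2. Nemf, of the ribosome quality control complex, and Sema3c, a secreted guidance cue, differed by -0.64 (95% interval -0.99 to -0.29) and -0.64 (95% interval -1.0 to -0.28), and in both HL replicate 2 was the highest library and HL replicate 4 lay within HH. Without HL replicate 2 the differences were -0.35 and -0.38. The rest of the 12 were Ccdc181, 1600002K03Rik, Dcaf17 and Armcx5, with log2 differences of -0.95, -1.07, -0.91 and -0.75.

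Among those higher in HH, Src (chromosome 2, 157418444 to 157471862, plus strand), the tyrosine kinase of focal adhesions, had 21.5, 15.2, 22.3 and 17.2 CPM in HH and 9.30, 10.1 and 10.6 CPM in HL. Every HH library lay above every HL library, with means of 19.1 ± 3.43 CPM (SD, n = 4) in HH and 9.99 ± 0.652 CPM (SD, n = 3) in HL and a log2 difference of 0.89 (95% interval 0.41 to 1.37). Gins3 (chromosome 8, 95633453 to 95645060, plus strand), a subunit of the replicative helicase complex, had 23.5, 25.8, 23.0 and 23.1 CPM in HH and 13.6, 14.1 and 13.6 CPM in HL, with 0.75 (95% interval 0.35 to 1.16). Its values were close together within each group. Nsun5, which methylates 28S rRNA, had 9.33, 12.9, 9.23 and 9.91 CPM in HH and 5.42, 4.15 and 5.14 CPM in HL, with 1.02 (95% interval 0.39 to 1.66). Il1r1, the interleukin 1 receptor, had 8.996, 11.3, 9.02 and 10.6 CPM in HH and 5.11, 3.60 and 5.62 CPM in HL, with 1.01 (95% interval 0.36 to 1.65). In both the groups stood apart. Ppm1d, a phosphatase of the p53 response, had 10.2, 15.2, 15.9 and 14.3 CPM in HH and 5.42, 7.75 and 8.51 CPM in HL, again without overlap. Ranbp6, Klhl24, Hist1h1e and Klhdc8a differed by 1.53, 0.55, 0.44 and 0.72 on the log2 scale, with all HH libraries above HL. Without HL replicate 2 these differences were 2.12, 0.39, 0.47 and 0.88. Eif4a1, an RNA helicase of translation initiation, differed by 0.50 (95% interval 0.18 to 0.83), and by 0.35 without HL replicate 2, and overlapped at HL replicate 3. It overlaps 3 small gene models, which makes its count uncertain. Oasl2, given above, completes the 12 together with Serpina3n.

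Serpina3n, a serine protease inhibitor, had 6.16, 5.73, 6.23 and 5.69 CPM in HH and 2.04, 1.44 and 2.25 CPM in HL and a log2 difference of 1.57 (95% interval 0.67 to 2.48), but its sequencing runs disagree. In the first run it had 9.42 to 15.9 CPM in HH and 1.34 to 1.59 CPM in HL. In the second run of the same libraries it had 0.616 to 2.85 CPM in HH and 1.36 to 3.07 CPM in HL. The log2 difference was 2.96 in the first run and -0.61 in the second, so the difference is present in 1 run only. The other 23 genes of this set kept their direction in both runs.

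**Figure D5:**
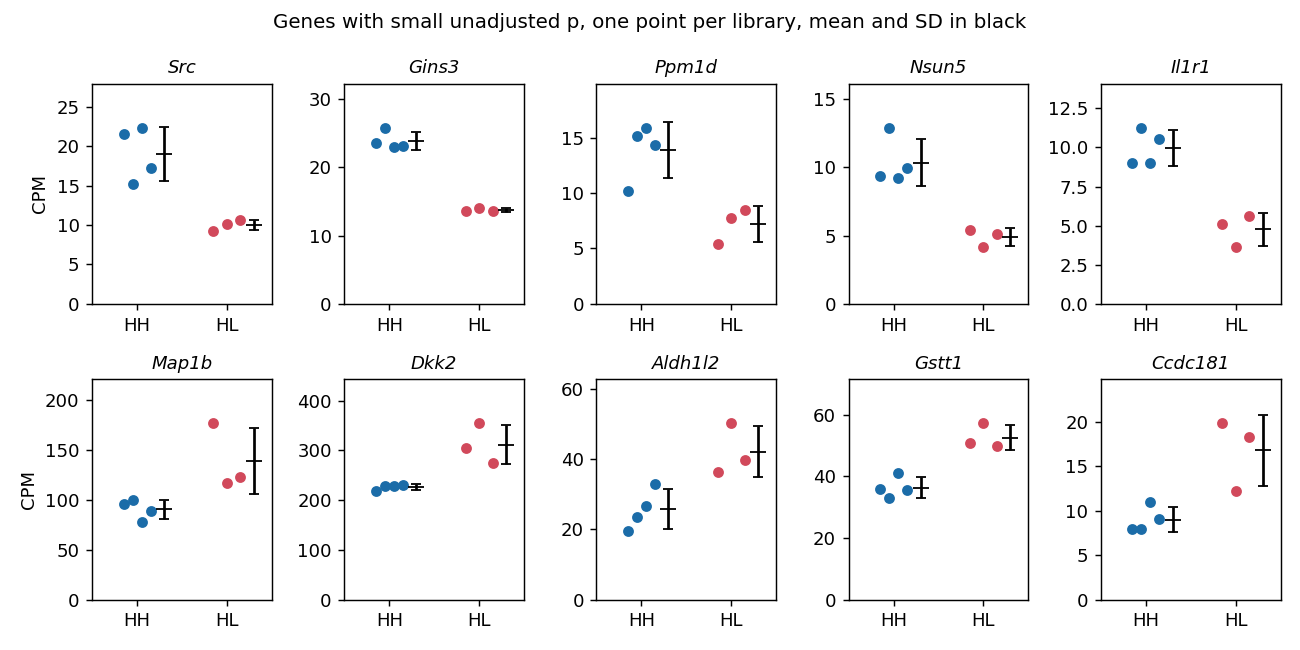
Levels of 10 genes with a small unadjusted p at the first collection, in CPM on a linear axis from 0, with 1 point for each of the 4 HH and 3 HL libraries and the mean and SD in black. The groups do not overlap in these panels, as for Src, with 15.2 to 22.3 CPM in HH and 9.30 to 10.6 CPM in HL, but no adjusted p was under 0.05.

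The difference at the first collection was also set against that of the later ones. By titles, 0 of 12900 genes (0%) had a difference between HH and HL at the first collection that departed from the mean difference over collections 2 to 6 with an adjusted p under 0.05, and 400 (3.10%) had an unadjusted p under 0.05. With HL libraries grouped by the numbers in the read summary, which differ from the titles at the later collections, the counts were 0 of 12819 (0%) and 540 (4.21%). Src had a log2 difference of 0.89 at the first collection and 0.07 over the later ones by titles, and -0.06 by numbers. It and Dkk2 were named for their difference at the first collection, so these values are a description with no test. Dkk2 had -0.50 at the first collection and 0.30 over the later ones by titles, and 0.09 by numbers. For Tef the later difference was 0.27 by titles and 0.00 by numbers, and for Nr1d1 it was -0.04 and 0.18.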

How the data were processed

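RNA of the fibroblasts was measured by sequencing of transcript 3′ ends, with 2 sequencing runs for most libraries. The authors deposited whole-number counts of reads per gene for each run, not normalized, made with a service pipeline for which the submitters' processing notes name bcl2fastq, STAR 2.6.0a and HTSeq 0.9.1 and the build mm10. The annotation release and strand setting were not given in the sources used here. Rows that name no gene (no feature, 21.1% to 26.4% of a run's reads) were left out. Counts of both runs of a library were summed, and genes with at least 1 CPM in 3 libraries were kept. HH and HL were compared with edgeR 4.0.16 (quasi-likelihood test, TMM scaling, R 4.3.3) with Benjamini-Hochberg adjustment at 0.05, over all tested genes. Intervals of 95% come from the same fit. The HH time course used collections 2 to 6, and the contrast of first and later collections used both media. Alternatives were DESeq2 1.42.0, limma 3.58.1, other scalings and filters, each run alone, equal depth, and leaving out each library. The scripts were tested on simulated data. The main fit did not use the replicate numbers as pairs, and a fit with them as a block was an alternative. Correlations of deviations from the group means were 0.0809, 0.0538 and 0.0501 for libraries of the same number. Other pairs had -0.109 to 0.0928, and whether the numbers mark pairs was not settled. Members, gene lists and tests were chosen with earlier results of these data known. Named are the 12 genes of smallest p in each direction at 5 CPM or more, the 2 members of smallest p of a list, and core clock genes. Other named genes (such as Bhlhe41, Spon2, Gbp2, Isg15, Atf4, Trib3, Sars, Dkc1, Gpr146, Slc25a10 and H19) were chosen after their values were seen. One member of the interferon list is not reported here.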

Additional observations from a re-analysis of the deposited data

Results flagged for a closer look

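In 3 of 122 groups of 4 HH libraries examined, 1 library lay farther from the others than Dixon's critical value allows, and chance alone gives about 1 in 20. For Ccng2 the gap of HH replicate 3, at 24.7 CPM, was 0.888 of the range. For Rrn3 the gap of HH replicate 1, at 51.3 CPM, was 0.877 of the range. The summed level of the glucocorticoid and KLF genes was 1096, 941, 958 and 935 CPM in HH, where replicate 1 stood apart with a gap of 0.856 of the range. It was 841, 901 and 959 CPM in HL. The cause was not tested.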

How the results depend on the processing

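Of 11544 genes 0 passed the adjusted threshold with edgeR, and the count was 5 with no filter on low counts (2900060B14Rik, Kctd2, Map1b, Nemf and Sema3c), 1 in the first run alone (Serpina3n) and 1 with the replicate number as a block (2900060B14Rik). The count at an unadjusted p of 0.01 was 152. Every other alternative, including 2 chosen after seeing the data (at least 10 counts in each of the 7 libraries, and limma-voom with sample weights), gave 0. The 737 genes at an unadjusted p under 0.05 became 1117 with no filter, 836 with the block and 240 with all 62 libraries, and leaving out 1 library gave 471 (without HH replicate 3) to 1281 (without HL replicate 4). For the contrast of first and later collections 46 genes had an unadjusted p under 0.01. For the HH time course the 7 genes became 71 with DESeq2's likelihood ratio test, 30 with a replicate block and 148 at an unadjusted p of 0.01. Of 1032 log2 differences of 86 named genes under 12 alternatives, 1002 kept their direction and 30 in 11 genes did not. In the second run these were Serpina3n at -0.61 (2.96 in the first run), Per2 at -0.09, Arntl at 0.22 and Nr1d1 at -0.02, and in the first run Per3 at -0.08, Nr1d2 at -0.03 and Tef at 0.00. With the block the ATF4 list had 3 members higher and 3 lower at an unadjusted p under 0.05 and a median of 0.019, and ribosomal proteins had 21 higher and 0 lower. Arntl was then 0.06 and Tef 0.00, with library totals both were 0.03, and H19 was -0.01 with DESeq2. Leaving out 1 library gave -0.18 to 0.45 for Per2, -0.03 to 0.65 for Per3, -0.20 to 0.26 for Cry1, -0.02 to 0.44 for Cry2, -0.13 to 0.21 for Arntl, -0.06 to 0.41 for Nr1d1, -0.08 to 0.02 for Tef, -0.78 to 0.15 for Arrdc4 and -0.37 to 0.44 for H19. The cause was not tested. Low genes such as Per2 and Arrdc4 have wide intervals.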

Other observations

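Some genes of other tissues were counted mainly in 1 sequencing run of the same 7 libraries, in both groups. Lyz2, a lysozyme of macrophages, had 148 counts in HH and 135 in HL in the first run and 6 and 9 in the second, and the macrophage receptors Csf1r and Cx3cr1 had 244 against 40 and 211 against 17. The liver genes Alb, Apoa1 and Serpina1e had 1, 8 and 7 counts in the first run and 367, 196 and 161 in the second. Of the 11544 tested genes 170 (1.47%) differed between runs by a chi-square per library above 4, with a median of 1.15 over all. Among them were Serpina3n (15.5), H19 (13.9), Sparc (12.6), Dkk2 (6.67), Calr (5.73), Nupr1 (5.21) and Ccnd1 (4.55). The genes of other tissues were chosen after their values were seen, and the cause was not tested.

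H19, an imprinted noncoding RNA, was chosen after its values were seen, for its different estimates at the first and the later collections. At the first collection it had 1.83, 2.46, 2.15 and 1.46 CPM in HH and 0.920, 3.06 and 1.93 CPM in HL, with overlap and a log2 difference of 0.00 (95% interval -1.13 to 1.13). These values rest on the first run, with 41 counts in HH and 38 in HL, beside 1 and 0 in the second. Over the later collections the difference was 4.21 by titles (adjusted p = 0.000156, edgeR's quasi-likelihood test) and 0.59 by the numbers of the read summary (adjusted p = 0.926). First minus later was -4.23 by titles, with an adjusted p of 0.687. In the later HH libraries H19 had 121 counts in the first run and 3 in the second, and in the later HL libraries 4 and 3. The cause was not tested.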
